A study of Mus musculus with 4 samples.

Results

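Protein kinase A (PKA), its anchor Akap1 and the phosphodiesterases that break down cAMP were followed in mouse cumulus cells (CCs) through 17 probes of 10 genes, out of 25697 probes for 18118 symbols on the array. The members were the probes whose symbol in the non-normalized table is Prkaca, Prkacb, Prkar1a, Prkar2a, Prkar2b, Akap1, Pde3a, Pde4b, Pde4d or Pde8a, and every such probe was kept on all 4 arrays. The CCs came from B6C3F1 females, given as 6 weeks old in the sample labels, that had been primed with gonadotropin. SN-CCs had enclosed oocytes whose chromatin forms a ring around the nucleolus (surrounded nucleolus, developmentally competent), and NSN-CCs had enclosed oocytes without that ring (not surrounded nucleolus, incompetent). Each type of CCs gave 2 pools, made from many cumulus-oocyte complexes of many ovaries, and 1 Illumina mouse BeadChip was used for each pool. The labels name the tissue as oocytes while their titles and the methods say CCs. Of the granulosa and cumulus cell markers, 9 of 10 were above background on all 4 arrays, with summed signals between 105619 and 158559. So were 8 of 12 matched oocyte markers (summed signals between 3619 and 5437) and 41.2% of all probes. The counts were 5 of 6 for theca and stroma, 3 of 3 for red blood cells, 1 of 5 for leukocytes and 1 of 4 for endothelium. In pooled RNA, fewer cells of a type and less RNA per cell cannot be told apart.

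In granulosa cells, follicle stimulating hormone acts through a G protein coupled receptor and adenylyl cyclase to raise cAMP. The cAMP binds the regulatory subunits of PKA, which then release the active catalytic subunits, and these phosphorylate targets such as the CREB transcription factor. Phosphodiesterases break cAMP down, anchoring proteins hold PKA at given places in the cell, and in the follicle cAMP is also known for keeping the oocyte in meiotic arrest.

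No probe of these genes passed the test between NSN-CCs and SN-CCs. Without SN-CCs replicate 1, 9 of the 10 probes above background on 3 or 4 arrays passed it, as did 9547 probes of the whole array, in a fit where SN-CCs replicate 2, the array that differed most from the rest, was the lone SN-CCs pool and was assumed to vary like the NSN-CCs pools. The member with the smallest p was Pde8a, lower in both pools of NSN-CCs, followed by a probe of Akap1, higher in both. The catalytic subunit gene Prkaca was 1.61-fold and 1.54-fold higher in NSN-CCs on its 2 probes, and the log2 fold changes behind these values came close to 0 (0.01 and 0.10) without SN-CCs replicate 2. Of the 10 genes, 7 had a probe above background on 3 or 4 arrays, and Prkar2a, Pde3a and Pde4b had none on any array. By probe, 8 of the 17 were above background on every array (41.2% of all probes) and 7 on none (40.6% of all probes), and the other 2 were Akap1 probes below background in SN-CCs replicate 2 alone.

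The signals below are the deposited values before normalization, in arbitrary units, with the background still in them. A background limit was set for each array at the 95th percentile of its 1340 probes for chemosensory receptors, and it lay between 116 and 120. For the comparison the signals were corrected with normexp, quantile normalized and put on the log2 scale. Each log2 fold change is NSN-CCs minus SN-CCs, with limma's standard error and with the Benjamini-Hochberg adjustment made over the 25697 probes of the array. Over the whole array 0 probes (0%) had an adjusted p under 0.05 in limma, and before adjustment p was under 0.05 for 800 probes (3.11%), with 281 (1.09%) on the higher side and 519 (2.02%) on the lower side in NSN-CCs. An exact permutation test of 2 arrays against 2 cannot go below p = 0.333.

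The array of SN-CCs replicate 2 differed most from the rest. Over the 10588 probes above background on every array, its normalized log2 values correlated with those of the other arrays at 0.886 to 0.894, while the other 3 arrays correlated with each other at 0.990 to 0.996, a description of probes that share an array. The fold changes from all 4 arrays are therefore also given without that array, a setting with 1 SN-CCs pool left, so that the spread comes from NSN-CCs alone.

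**Figure D1:**
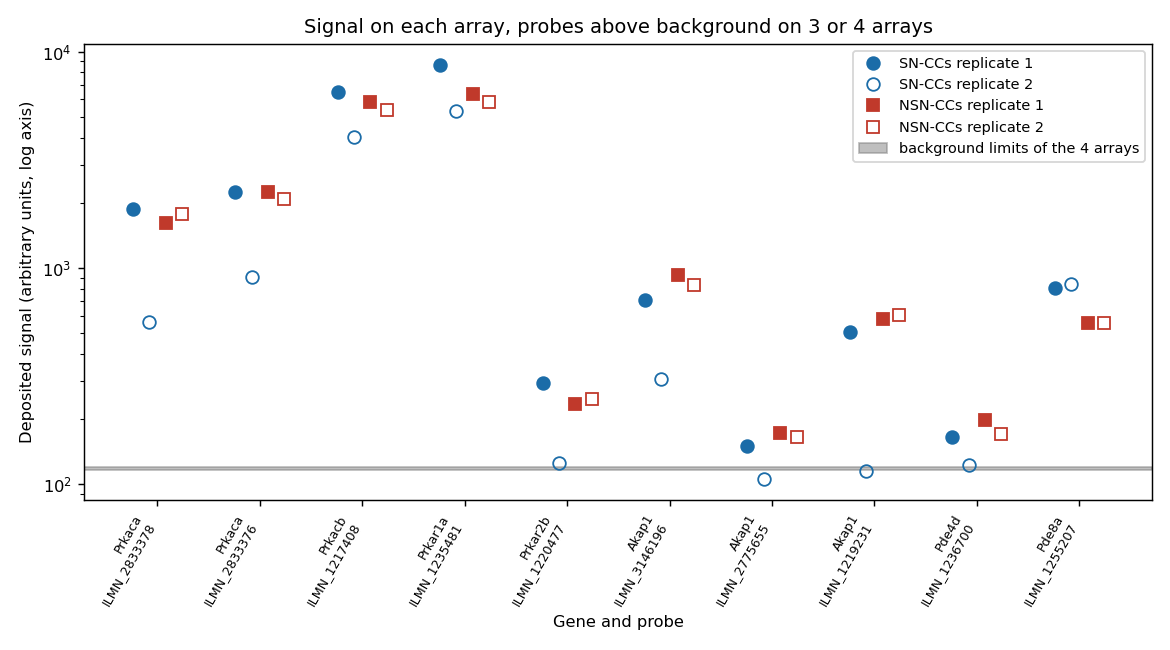
Deposited signal (log axis, arbitrary units) of the 10 probes above background on 3 or 4 arrays, with 1 point for each array and a grey band for the background limits of 116 to 120. SN-CCs replicate 2 holds the lowest point of 9 probes, against 49.6% of all probes above background on 3 or 4 arrays. Pde8a, where both SN-CCs pools lie above both NSN-CCs pools, is the exception.

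The catalytic subunits carry the kinase activity of PKA. Prkaca, the gene of the alpha catalytic subunit, had 2 probes. On the first (ILMN_2833378) the signals were 1871 and 562 in the SN-CCs pools, against 1612 and 1762 in the NSN-CCs pools. On the second (ILMN_2833376) they were 2235 and 901 in the SN-CCs pools, against 2231 and 2087 in the NSN-CCs pools. Both probes thus set SN-CCs replicate 2 below the other 3 arrays, which lay close together. The fit by limma gave a log2 fold change of 0.68 with a standard error of 0.48 (95% interval -0.62 to 1.99, adjusted p = 0.811 from limma) on the first probe and of 0.63 with a standard error of 0.38 (95% interval -0.41 to 1.66, adjusted p = 0.811 from limma) on the second. The normalized pools did not overlap on the second probe and overlapped on the first. Prkacb, the gene of the beta catalytic subunit, had signals of 6485 and 4018 in the SN-CCs pools, against 5865 and 5373 in the NSN-CCs pools. In these signals its SN-CCs pools enclosed the NSN-CCs pools. After normalization NSN-CCs replicate 1 (12.64 on log2) lay above both SN-CCs pools (12.56 and 11.88), and NSN-CCs replicate 2 (12.51) lay between them. The log2 fold change was 0.36 with a standard error of 0.27 (adjusted p = 0.811 from limma), and without SN-CCs replicate 2 it was 0.01.

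The regulatory subunits hold the catalytic subunits inactive until cAMP binds. Prkar1a, which encodes the type I alpha subunit, had signals of 8688 and 5319 in the SN-CCs pools, against 6344 and 5843 in the NSN-CCs pools. Here SN-CCs replicate 1 was the highest and replicate 2 the lowest of the arrays. The fit by limma gave a log2 fold change of 0.07 with a standard error of 0.29 (95% interval -0.72 to 0.87, adjusted p = 0.956 from limma), and it was -0.31 without SN-CCs replicate 2 and -0.21 when arrays were scaled to a common median in place of quantile normalization. Prkar2b, which encodes the type II beta subunit and is known to be induced by follicle stimulating hormone in rat granulosa cells, had signals of 293 and 125 in the SN-CCs pools, against 234 and 247 in the NSN-CCs pools. Again the pools of SN-CCs lay on either side of those of NSN-CCs. The fit by limma gave a log2 fold change of 0.25 with a standard error of 0.36 (adjusted p = 0.858 from limma), -0.23 without SN-CCs replicate 2 and -0.10 in the table that the authors normalized. The single probe of Prkar2a, the type II alpha subunit gene, stayed at or below background throughout, at 102 and 97.4 in the SN-CCs pools, against 96.6 and 91.7 in the NSN-CCs pools, so no fold change is given for it.

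Akap1 encodes an anchoring protein that holds PKA at the outer membrane of mitochondria. Of its 6 probes, 3 were above background on 3 or 4 arrays and 3 on none. The probe ILMN_3146196 had signals of 712 and 305 in the SN-CCs pools, against 922 and 829 in the NSN-CCs pools. Both NSN-CCs pools lay above both SN-CCs pools, with mean log2 values of 9.71 ± 0.12 (SD, n = 2 pools) and 8.92 ± 0.49 (SD, n = 2 pools). The fit by limma gave a log2 fold change of 0.79 with a standard error of 0.28 (95% interval 0.04 to 1.54, adjusted p = 0.811 from limma), the unadjusted p was 0.0433 in limma's fit, and the fold change was 0.42 without SN-CCs replicate 2. The probe ILMN_1219231 read 503 and 115 in the SN-CCs pools, against 580 and 602 in the NSN-CCs pools. SN-CCs replicate 2 was below its background limit there, so the log2 fold change of 1.36 with a standard error of 0.71 (adjusted p = 0.811 from limma) rests on 1 measured pool of SN-CCs, and without that array it was 0.34. The probe ILMN_2775655 read 149 and, below background, 105 in the SN-CCs pools, against 172 and 165 in the NSN-CCs pools. The fit by limma gave a log2 fold change of 0.42 with a standard error of 0.21 (adjusted p = 0.811 from limma), 0.21 without SN-CCs replicate 2 and -0.10 in the table normalized by the authors. These 3 probes thus placed NSN-CCs above SN-CCs to different degrees, and none passed the test. The platform annotation assigns ILMN_3146196 and the dim probe ILMN_3068062 to another RefSeq transcript of Akap1 than the other probes, and ILMN_3068062 read between 90.3 and 108 on all arrays.

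Pde8a encodes a phosphodiesterase specific for cAMP. Its probe (ILMN_1255207) had signals of 804 and 841 in the SN-CCs pools, against 556 and 556 in the NSN-CCs pools. In these signals the pools of each type were close to each other. After normalization the SN-CCs pools were at 9.45 and 9.90 on log2 and the types did not overlap, with mean log2 values of 9.68 ± 0.32 (SD, n = 2 pools) in SN-CCs and 9.01 ± 0.01 (SD, n = 2 pools) in NSN-CCs. The signal was thus 1.59-fold higher in SN-CCs after normalization (log2 fold change -0.67, standard error 0.20, 95% interval -1.21 to -0.12). The unadjusted p was 0.0266 and the adjusted p was 0.811 in limma. Without SN-CCs replicate 2 the log2 fold change was -0.43, and in the table normalized by the authors it was -0.50. The signals of Pde8a in that table were 708 and 777 in the SN-CCs pools, against 524 and 525 in the NSN-CCs pools. The median of all probes there was -0.43, but it includes dim probes, which that table sets higher on SN-CCs replicate 2 than on the other arrays. The Prkaca probes were at 0.71 and 0.67 in the same table. Pde8a was the only one of the 10 probes above background on 3 or 4 arrays with SN-CCs replicate 2 at the top. Markers of the oocyte were also lower in NSN-CCs (12 of 12 matched, against 14397 of all 25697 probes, with a median log2 fold change of -0.40). Without SN-CCs replicate 2 still 12 of 12 were lower, with a median of -0.20. In limma 4 of these 12 markers had an unadjusted p under 0.05 (2.02% of all probes on the lower side) and 0 an adjusted p under 0.05. Their summed signal was 4732 and 5437 in the SN-CCs pools, against 3619 and 3695 in the NSN-CCs pools, with Zp2 at or below background on all arrays, and their part in the value of Pde8a was not tested.

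Pde4d encodes another phosphodiesterase specific for cAMP, of a family expressed in granulosa cells. Its probe ILMN_1236700 had signals of 164 and 123 in the SN-CCs pools, against 197 and 171 in the NSN-CCs pools, all above the limits but near them. Both NSN-CCs pools were above both SN-CCs pools, by a log2 fold change of 0.28 with a standard error of 0.16 (adjusted p = 0.811 from limma), 0.20 without SN-CCs replicate 2 and -0.09 in the table of the authors. The second probe of Pde4d (ILMN_1215021) read between 95.8 and 107, and Pde4b, a gene of the same family, between 78.7 and 84.3. Pde3a, which is known as the phosphodiesterase of the mouse oocyte, read between 98.8 and 103. These 3 probes were at or below background on all arrays. A transcript below the limit on this array may still be present at a low level.

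**Figure D2:**
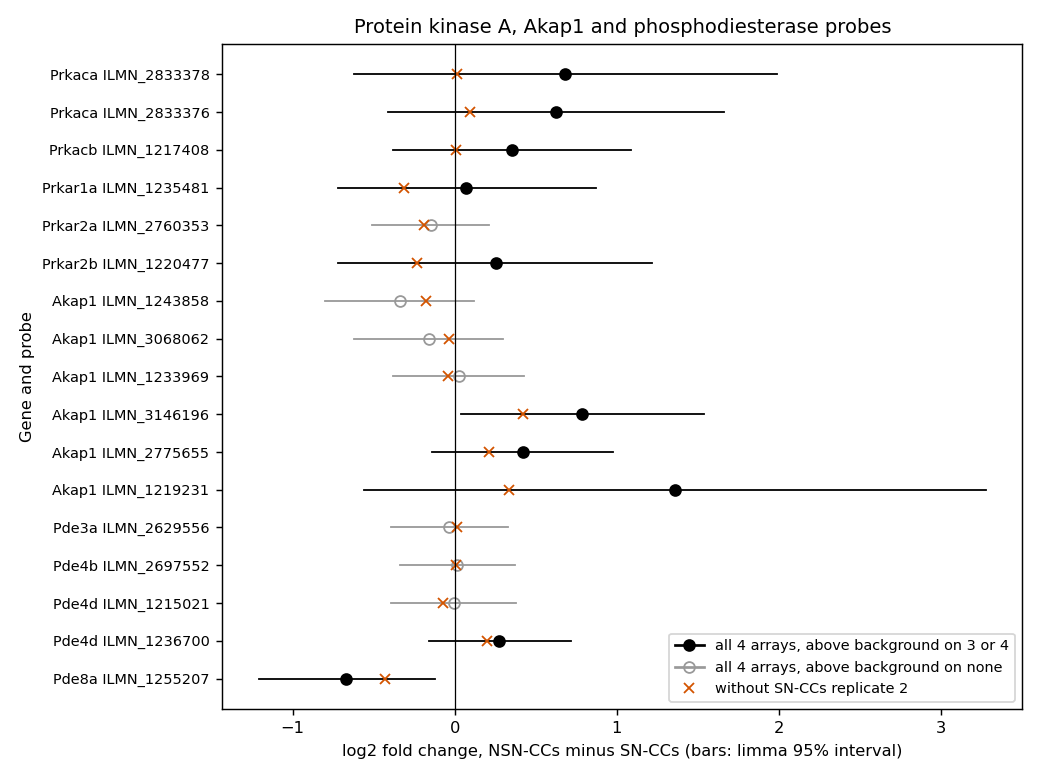
log2 fold change (NSN-CCs minus SN-CCs) of all 17 probes, with limma's 95% interval as bars. Filled black points are probes above background on 3 or 4 arrays, open grey points are probes above background on none, and orange crosses are the values without SN-CCs replicate 2. The crosses of Prkaca and Prkacb lie between 0.01 and 0.10, those of Prkar1a and Prkar2b at -0.31 and -0.23, and those of Akap1 ILMN_3146196 and Pde8a at 0.42 and -0.43.

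Over all 17 probes, 11 had a log2 fold change above 0 and 6 below it (median 0.07), against 44.0% above 0 and a median of -0.03 over the whole array. Without SN-CCs replicate 2 there were 9 above and 8 below (median 0.01), against 49.8% above 0 over the array. These counts include probes at or below background on every array. With such probes left out, 10 remained, of which 9 were above 0 and only Pde8a was below it. Of these 10, 7 were above 0 and 3 below it without SN-CCs replicate 2. The normalized pools of the types did not overlap for 8 of the 17 (38.2% of all probes). Both NSN-CCs pools lay above both SN-CCs pools for 5 of these 8 (4110 of all 25697 probes) and below them for 3 (5702 of all 25697 probes), and 2 of those 3 were probes at or below background. An unadjusted p under 0.05 in limma was found for 2 of the 17, Pde8a and the Akap1 probe ILMN_3146196, and for 3.11% of all probes.

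The SD between pools was wider in SN-CCs than in NSN-CCs for 14 of the 17 probes, as for 72.3% of all probes, and its median over the array was 0.189 for SN-CCs and 0.081 for NSN-CCs. The exceptions were Pde4d ILMN_1236700, Akap1 ILMN_1233969 and Pde4b. Over the 10 probes above background on 3 or 4 arrays, the SD between pools of log2 values ran from 0.13 to 1.43 for SN-CCs and from 0.0085 to 0.15 for NSN-CCs. The ratio of the signal in SN-CCs replicate 2 to that in replicate 1 had a median of 0.521 over these probes, from 0.228 for Akap1 ILMN_1219231 to 1.05 for Pde8a, whereas it was 0.888 over all probes above background in replicate 1. In NSN-CCs the ratio of replicate 2 to replicate 1 stayed between 0.866 and 1.09. SN-CCs replicate 2 was the lowest array for 11 of the 17 probes, against 37.2% of all probes. Among probes above background on 3 or 4 arrays it was the lowest for 9 of the 10 members, against 49.6% over the array.

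The table that the authors normalized held SN-CCs replicate 2 on another footing. Its lowest value over all probes was 182 on that array and between 66.2 and 69.1 on the other 3. The 7 member probes at or below background were between 197 and 218 on SN-CCs replicate 2 in that table and between 79.9 and 109 on the other arrays, although in the deposited signals they lay between 74.4 and 108 on all arrays. There, 11 of the 17 probes were lower in NSN-CCs (median log2 fold change -0.10), as were 21200 of all 25697 probes (median -0.43). SN-CCs replicate 2 was the highest array there for 10 of the 17 probes and for 79.4% of all probes, against 3 of the 17 and 30.3% in the deposited signals. Prkaca (0.71 and 0.67), Prkacb (0.30) and the Akap1 probes ILMN_3146196 (0.77) and ILMN_1219231 (0.81) had log2 fold changes above 0 in that table as well.

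**Figure D3:**
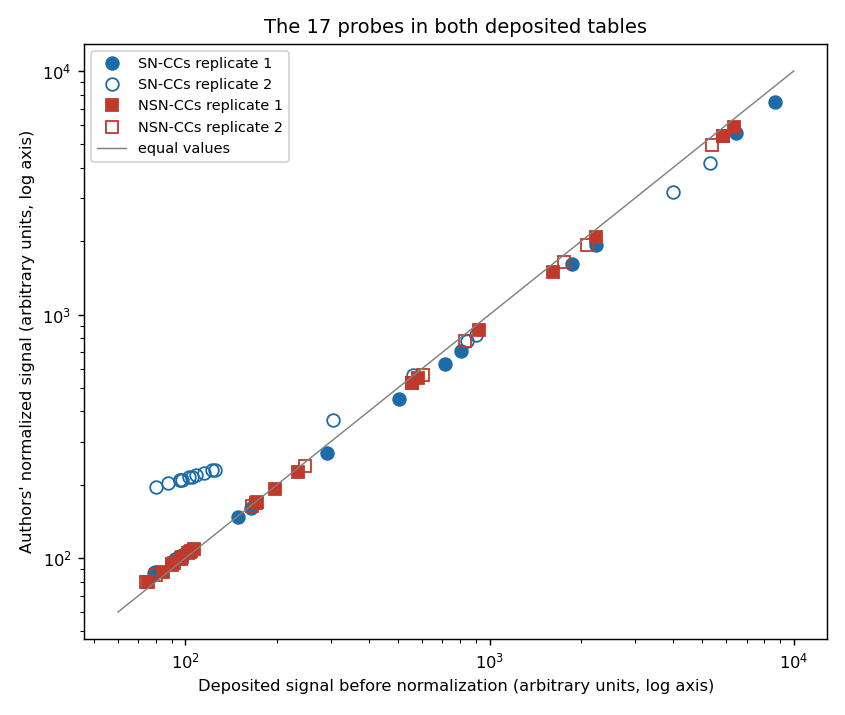
Signal of the 17 probes in the table the authors normalized (y) against the deposited signal before normalization (x), both in arbitrary units on log axes, with 1 point for each probe and array and a line of equal values. Dim probes on SN-CCs replicate 2 (open blue circles) lie between 197 and 218 on the y axis or just above, while those of the other arrays follow the line.

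The promoters of Pde8a and Prkaca are shown because these genes head the lower and higher sides among the phosphodiesterases and PKA subunits, and a stretch near a start of Prkar1a because it holds the whole cAMP response element. The sequences are RefSeq's, in the build GRCm38.p6, 5′ to 3′ on the strand of the gene, and TGACG or its reverse complement CGTCA is in capitals, as is the palindrome TGACGTCA, which contains both. The first pair are the 250 bases before a transcription start.
Pde8a, chr7:81213015-81213264, plus strand: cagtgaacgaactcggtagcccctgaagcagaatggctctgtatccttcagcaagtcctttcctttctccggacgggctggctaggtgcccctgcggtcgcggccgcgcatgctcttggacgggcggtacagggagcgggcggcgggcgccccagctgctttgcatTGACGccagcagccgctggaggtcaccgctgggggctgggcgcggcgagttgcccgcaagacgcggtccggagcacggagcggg
Prkaca, chr8:83972728-83972977, plus strand: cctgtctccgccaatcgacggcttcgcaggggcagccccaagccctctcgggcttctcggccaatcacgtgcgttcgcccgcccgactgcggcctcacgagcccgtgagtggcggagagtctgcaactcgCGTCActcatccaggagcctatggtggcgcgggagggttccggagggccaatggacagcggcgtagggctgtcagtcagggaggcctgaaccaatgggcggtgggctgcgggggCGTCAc
Prkar1a, chr11:109650889-109650918, plus strand: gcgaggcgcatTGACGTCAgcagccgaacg
The 5 letters TGACG, on either strand, were found in 7 of the 23 windows of 250 bases listed for 9 of the genes and in 17.8% of 32851 windows of all genes. These 7 windows belong to 5 of the 9 genes. Windows of nearby starts can overlap, as for Prkar1a, where the same match is counted more than once. TGACGTCA was found in 1 of the 23 and in 1.55% of all. A match is a run of letters and was not tested as a site, and the arrays do not show which start of Prkaca or Prkar1a these CCs used.

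Of the other genes of the cAMP pathway, 89 of 95 on 9 lists were matched to a probe, taking the brightest probe of each gene. None passed an adjusted p of 0.05 in limma. At an unadjusted p under 0.05 in limma, 7 were higher (1.09% of all probes) and 0 lower (2.02% of all probes). In NSN-CCs 51 were higher and 38 lower (57.3% higher, against 44.0% of all probes). Without SN-CCs replicate 2, 54 were higher and 35 lower, against 49.8% of all probes higher. The brightest probes are not like the whole array: 23 of the 89 were above background on no array, against 40.6% of all probes. Among receptors and G proteins (6 of 16 higher, median log2 fold change -0.05, and 9 of 16 with a median of 0.03 without SN-CCs replicate 2), Gnai2, an inhibitory G protein subunit, had signals of 3653 and 1866 in the SN-CCs pools, against 4175 and 4887 in the NSN-CCs pools (log2 fold change 0.93, and 0.47 without SN-CCs replicate 2). Gnas, the stimulatory subunit, had 2083 and 115 in the SN-CCs pools, against 2369 and 2333 in the NSN-CCs pools, and SN-CCs replicate 2 was below background. The luteinising hormone receptor gene Lhcgr had 3417 and 6215 in the SN-CCs pools, against 2916 and 2913 in the NSN-CCs pools (log2 fold change -0.48, and -0.07 without SN-CCs replicate 2). Vipr1, a receptor of vasoactive intestinal peptide, was above background on 1 array.

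Adenylyl cyclases make cAMP from ATP. Of 9 genes 5 were higher (median log2 fold change 0.02), with Adcy9 at 770 and 355 in the SN-CCs pools, against 945 and 966 in the NSN-CCs pools (0.77, and 0.45 without SN-CCs replicate 2) and Adcy6 at 615 and 273 against 678 and 772 (0.68, and 0.35 without it). Both genes had their NSN-CCs pools above their SN-CCs pools. Pkia and Pkig encode inhibitors that bind the free catalytic subunit, and both had their NSN-CCs pools below their SN-CCs pools. Pkia read 860 and 947 in the SN-CCs pools, against 664 and 652 in the NSN-CCs pools (log2 fold change -0.52, and -0.28 without SN-CCs replicate 2). Pkig read 585 and 845 against 531 and 533 (-0.50, and -0.04 without it), while Prkar1b, the type I beta subunit gene, read 121 and 110 against 148 and 151 (0.33, and 0.34 without it), with SN-CCs replicate 2 below background. In all, 1 of these 5 genes was higher and 4 lower (median -0.27, and -0.01 without SN-CCs replicate 2).

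Of 11 other phosphodiesterases of cAMP 6 were higher (median log2 fold change 0.01), and 2 were above background on all arrays. Pde7b was at 171 and, below background, 107 in the SN-CCs pools, against 203 and 224 in the NSN-CCs pools (0.66, and 0.39 without SN-CCs replicate 2), and Pde1a at 267 and 150 against 333 and 275 (0.43, and 0.27 without it). Of 12 other anchoring proteins 8 were higher (median 0.06), with Ezr, the gene of the membrane linker ezrin, at 0.56 (0.20 without SN-CCs replicate 2) and the nuclear anchor gene Akap8 at -0.71 (-0.32 without it, signals of 356 and 418 against 306 and 244). Among 4 other effectors of cAMP, Rap1b, a small GTPase, was at -0.42 (-0.19 without SN-CCs replicate 2), and Rapgef4, an exchange factor activated by cAMP, had a log2 fold change of 1.21 that was -0.26 without that array. Of 7 genes of phosphatases that oppose PKA and their inhibitors 5 were higher, with a median of 0.60, and without SN-CCs replicate 2 it was 3 of 7 with a median of -0.03.

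Among CREB factors 5 of 8 genes were higher (median log2 fold change 0.02). Crtc1 and Crtc3 encode coactivators of CREB, and Crtc1 read 211 and 128 in the SN-CCs pools, against 298 and 313 in the NSN-CCs pools (0.83, unadjusted p = 0.0107 in limma, and 0.64 without SN-CCs replicate 2). Crtc3 read 274 and 176 against 421 and 533 (0.96, unadjusted p = 0.00496 in limma, and 0.91 without SN-CCs replicate 2). For both genes the adjusted p was 0.811 in limma. Of 17 transcripts known to respond to cAMP, 13 were higher (76.5%, against 44.0% of all probes), with a median of 0.21, and 15 of 17 without SN-CCs replicate 2, with a median of 0.21. The count was 9 of 17 with median scaling, where the median of all probes was -0.05. It was 10 of 17 in the table normalized by the authors, where 4497 of all 25697 probes were higher. Both NSN-CCs pools lay above both SN-CCs pools for 11 of the 17 transcripts and below for 0. Of all 25697 probes, 4110 lay above and 5702 below in this way, 38.2% in either direction. Of the 10 granulosa and cumulus markers, which share Inha and Cyp19a1 with this list, 8 were higher (80.0%), with a median of 0.29. Without SN-CCs replicate 2 it was still 8 of 10, with a median of 0.07. For 5 of these markers both NSN-CCs pools lay above both SN-CCs pools, and for 0 below, beside the same 4110 and 5702 of all 25697 probes. Areg, the epidermal growth factor-like ligand amphiregulin, had signals of 2576 and 3084 in the SN-CCs pools, against 4217 and 4374 in the NSN-CCs pools. The fit by limma gave a log2 fold change of 0.80 with a standard error of 0.17 (adjusted p = 0.811 from limma), and it was 0.92 without SN-CCs replicate 2. Junb read 5273 and 3502 against 7530 and 8078. Hsd3b1, an enzyme of steroid synthesis, read 280 and 424 against 336 and 254, with pools that overlapped and a log2 fold change of -0.44 that turned to 0.13 without SN-CCs replicate 2. The list of cAMP-responsive transcripts mixes hormone targets with genes of the immediate early response. It was written with results on some of its genes known, and no test was made on it.

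**Figure D4:**
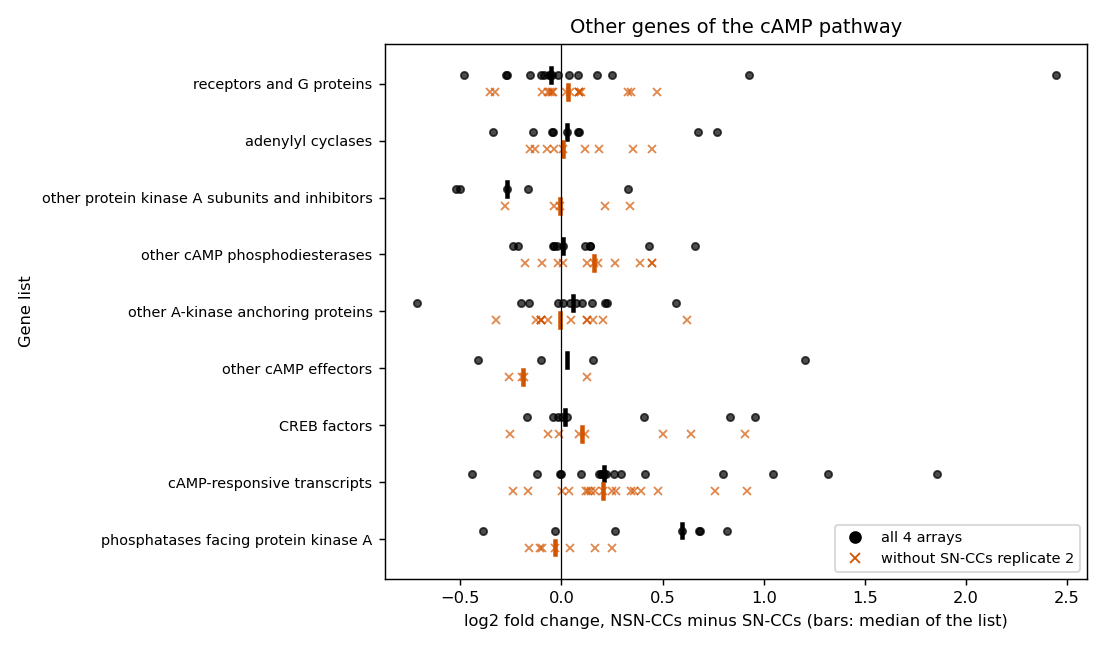
log2 fold change (NSN-CCs minus SN-CCs) of the 89 matched genes on 9 lists of the cAMP pathway, with 1 point for each gene and a bar at the median of each list, from all 4 arrays (black) and without SN-CCs replicate 2 (orange). The median of the cAMP-responsive transcripts is 0.21 in both settings, and that of the phosphatases is 0.60 and -0.03.

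The 3 probes of other genes whose pattern over the 4 arrays was nearest to that of Pde8a, among probes above background on all arrays, were those of Rb1, Pdcd10 and Zfp236, at distances between 0.024 and 0.033 of centred log2 values. Rb1 read 1557 and 1899 in the SN-CCs pools, against 1067 and 1072 in the NSN-CCs pools. Over 4 arrays such likeness is a description only.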

How the data were processed

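RNA of 4 pools of CCs (2 of SN-CCs, 2 of NSN-CCs) was amplified, hybridised to Illumina mouse BeadChips and read with BeadStudio, version 3 in the processing notes of the submitters. The authors deposited intensities of 25697 probes on a linear scale without normalization, which were analysed here, and a second table of intensities after their background subtraction and rank invariant normalization, which served as an alternative. Neither holds detection p-values. Values were corrected with normexp (offset 50), quantile normalized, put on log2 and tested by lmFit and eBayes of limma 3.58.1 under R 4.3.3 with no covariates, two-sided. The fit was checked on simulated arrays that all had the same SD of 0.081, the median between NSN-CCs pools. Between SN-CCs pools the median was 0.189, so the check does not cover an array that deviates like SN-CCs replicate 2. The methods describe the pools as biological replicates. The number of arrays limits the precision.

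Same-numbered pools did not deviate together (correlation over probes 0.04), so the replicate block was an alternative. Others were no background correction, an offset of 16, median scaling, a filter keeping probes above background on 2 arrays or more, and leaving out each array. The rule for named genes took all members, the 2 higher and 2 lower genes of each list with the smallest p, and the 3 probes nearest in pattern to the member with the smallest p, and some of the list genes it takes are given in counts only. Members and lists were chosen with earlier results of these data known. Symbols came from the table and the platform annotation. No coordinates of probes are given, because no source used here names a build for them.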

Additional observations from a re-analysis of the deposited data

How the results depend on the processing

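With the replicate block in the fit, 0 probes of the array passed an adjusted p of 0.05, as without it, and the block changed no direction or call among the 10 member probes above background on 3 or 4 arrays. These probes also kept their directions and calls without background correction, with an offset of 16, with the filter on dim probes and without either NSN-CCs pool. With median scaling Prkar1a turned to -0.21. In the table normalized by the authors Prkar2b turned to -0.10, Akap1 ILMN_2775655 to -0.10 and Pde4d ILMN_1236700 to -0.09, and 6 of 17 member probes were higher in NSN-CCs in place of 11. With the filter 9 of the 10 member probes left were higher in NSN-CCs. Their median log2 fold change was 0.39, against -0.06 over all 13873 probes left. Leaving out 1 array gave between 0 and 9547 probes called over the whole array, between 9 and 12 member probes higher in NSN-CCs, and a median of their log2 fold changes between 0.006 and 0.35. Without SN-CCs replicate 1, 9547 probes were called, among them 9 of the 10 member probes, in a fit that takes the spread from the NSN-CCs pools alone and has SN-CCs replicate 2 as the lone pool. Without SN-CCs replicate 2, 1 probe was called, and Prkar1a turned to -0.31 and Prkar2b to -0.23, where leaving out the other arrays in turn gave up to 0.45 and 0.70. On the pathway lists, the table normalized by the authors lowered the number of genes higher in NSN-CCs on all 9 lists, from 6 to 2 of 16 receptors and G proteins, from 6 to 2 of 11 other phosphodiesterases and from 13 to 10 of 17 cAMP-responsive transcripts, and median scaling gave 9 of these 17. The cause was not tested. Below the background limits of 116 to 120 no difference could be measured.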
